A study of Mus musculus with 5 samples.

Results

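The Frizzled receptors and Wnt co-receptors described here are 10 genes of the 24062 in the deposited count table: Fzd1, Fzd2, Fzd4, Fzd5, Fzd6, Fzd7 and Fzd8, the co-receptor genes Lrp5 and Lrp6, and Ror2. They were chosen by symbol, each matched 1 row, and all 10 passed the filter on low counts that left 14244 genes to test. RNA came from mitral valve leaflets of mice and was sequenced in 5 libraries, 2 titled wild type (WT) and 3 titled knockout (KO) for Ift88, which encodes a carrier protein needed to build cilia. Every library is labelled NfatC1Cre(+), a Cre expressed from the Nfatc1 gene, which is active in endocardial cells, so cells of other lineages would keep Ift88. Alleles written beside the titles run the other way, Ift88f/f for WT and Ift88+/+ for KO, and the labels used here give no age. WT and KO below mean the titles. Ift88 was lower in every KO library (0.409 to 3.91 CPM, reads scaled to library size) than in either WT library (7.53 and 19.8). So were 11.1% of all tested genes. The log2 fold change of Ift88 was -2.48 (95% interval -5.22 to 0.26) and did not pass (edgeR quasi-likelihood test, adjusted p = 0.81).

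Wnt proteins are lipid-modified ligands that bind the cysteine-rich outer domain of Frizzled receptors, which cross the membrane by a bundle of helices. When a Wnt joins a Frizzled to Lrp5 or Lrp6, the complex recruits Dishevelled, the destruction complex of Apc, Axin and Gsk3b is held off, and beta-catenin enters the nucleus. Ror2 is a receptor tyrosine kinase with a Frizzled-like outer domain that binds Wnt5a and acts mainly outside the beta-catenin branch, in cell polarity and migration. In the heart, Wnt signalling takes part in endocardial cushion growth and in the shaping of valve leaflets.

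Marker genes of the cell types in and around the leaflet differed between libraries. Library totals ran from 23361414 to 53789026 counted reads. Cardiomyocyte markers (10 of 10 with reads in every library) summed to 93.5 CPM in WT replicate 2 and 49294 in WT replicate 1, and to between 26170 and 35241 in KO. The 10 valve endothelial markers, all with reads in every library, summed to 297 CPM in WT replicate 1 and 2426 in WT replicate 2, and to between 1709 and 2776 in KO. The 10 interstitial cell markers, the matrix-making cells of the leaflet, also had reads in every library and summed to 2782 and 7780 CPM in WT and to between 8006 and 11526 in KO. The labelled tissue thus had its defining endothelial and interstitial markers in each library, and WT replicate 2 stood apart by its low cardiomyocyte marker sum. Smooth muscle, macrophage, mast cell, melanocyte, Schwann cell, epicardial, adipocyte and red blood cell marker sums overlapped between WT and KO. Of the 5 adipocyte and 5 red blood cell markers only 1 each, Fabp4 and Alas2, passed the filter. Those sums rest almost wholly on that gene and say little about these cells. In bulk tissue, fewer cells of a type and less RNA per cell cannot be told apart.

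None of the 10 genes passed the test of KO against WT, and the gene with the smallest p was Ror2, whose level was 3.89 times higher in KO (95% interval 1.59 to 9.5). All 10 had a positive log2 fold change in the fit to all libraries, with a median of 1.18, while 49.4% of all tested genes were positive and their median was -0.01. Directions were not stable, since 3 Frizzleds and Lrp6 turned negative in at least 1 other fit. For Fzd1, Fzd5, Fzd8 and Ror2 each KO library was above both WT libraries, which is 4 of 10, beside 13.5% of all tested genes. No member was lower in every KO library, beside 11.1%. Members and lists were chosen with earlier results of these data known, so counts set beside all tested genes are a description only. The edgeR quasi-likelihood test with Benjamini-Hochberg adjustment called 0 members, beside 0% of all tested genes (smallest adjusted p = 0.81). At an unadjusted p under 0.05 there was 1 member, Ror2, beside 5.84% of all tested genes in either direction and 4.57% higher in KO. DESeq2, limma-voom and the edgeR likelihood-ratio test also called 0 members, beside 218, 0 and 50 of the 14244 tested genes. The labels do not say that libraries of a group came from separate animals, so these p-values measure only the spread between libraries, which may be technical.

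Ror2 had 8.26 and 8.25 CPM in WT replicates 1 and 2 and 37.0, 20.4 and 38.8 in KO replicates 1, 2 and 3. Both WT libraries sat at the same level, and the lowest KO library was well above them. Its mean was 8.25 ± 0.00588 (SD, n = 2) for WT, against 32.1 ± 10.1 (SD, n = 3) for KO. If reads are taken as independent, counting error was small beside that gap. The Poisson interval was 7.19 to 9.43 CPM in WT replicate 1, 7.52 to 9.02 in WT replicate 2 and 19.1 to 21.8 in KO replicate 2. The WT SD lies far below what these intervals allow for counting error, so 2 libraries this close do not measure the spread of WT. Poisson intervals, at 95%, cover counting error only. They can be too narrow even for that, because amplified reads are not independent molecules. The log2 fold change was 1.96 (SE 0.53, edgeR quasi-likelihood test, unadjusted p = 0.00966, adjusted p = 0.81). It ranked 139th of 14244 genes by p. A p that misses the threshold does not show that the groups were alike. Across the 15 other fits it stayed between 1.71 and 2.20, and its adjusted p lay between 0.0571 (DESeq2) and 1.0. WT replicate 2 was at 0.999 of WT replicate 1 for Ror2, while the median difference over tested genes was 2.02-fold in either direction. The interstitial marker sum was also above both WT libraries in each KO library, but less clearly. Its WT sums were apart (2782 and 7780 CPM), and the lowest KO sum (8006) was close to the higher of them. Taken singly, 6 of its 10 markers had each KO library above both WT libraries, beside 13.5% of all tested genes. Pdgfra, Lum, Vim and Thy1 overlapped between groups. The part of interstitial cells in the Ror2 difference was not tested. Ror2 lies on the minus strand of chromosome 13 (53109312 to 53286124, GRCm38) and its longest coding transcript has 9 exons and 3985 nt.

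Sequence upstream of the start site was matched in RefSeq (GRCm38.p6) for 5 of the 10 genes, namely Fzd1, Fzd4, Fzd5, Fzd7 and Ror2. Shown are the 250 bases before the start for Ror2 and Fzd1, whose KO libraries all lay above WT, and for Fzd7, which varied most within KO. Fzd5 also had all KO libraries above WT, and its window is not shown. Capitals mark 3 kinds of motif, searched on both strands. The GC box is GGGCGG, known as a site for Sp factors, and neighbouring matches can overlap. For the TATA box of a core promoter the letters were TATAAA. The box bound by nuclear factor Y is given by its name, CCAAT.
Ror2 (chr13:53286125-53286374, minus strand): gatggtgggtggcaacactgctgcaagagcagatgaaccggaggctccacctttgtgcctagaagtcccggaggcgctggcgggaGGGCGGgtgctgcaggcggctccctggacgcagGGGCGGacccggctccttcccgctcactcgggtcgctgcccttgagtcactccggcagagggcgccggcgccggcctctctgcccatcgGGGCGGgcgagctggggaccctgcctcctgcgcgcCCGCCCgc
Fzd1 (chr5:4758217-4758466, minus strand): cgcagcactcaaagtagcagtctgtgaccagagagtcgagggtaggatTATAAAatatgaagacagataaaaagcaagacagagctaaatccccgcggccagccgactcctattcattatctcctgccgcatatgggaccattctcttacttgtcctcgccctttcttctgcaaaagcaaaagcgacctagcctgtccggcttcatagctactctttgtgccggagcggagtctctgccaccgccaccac
Fzd7 (chr1:59481897-59482146, plus strand): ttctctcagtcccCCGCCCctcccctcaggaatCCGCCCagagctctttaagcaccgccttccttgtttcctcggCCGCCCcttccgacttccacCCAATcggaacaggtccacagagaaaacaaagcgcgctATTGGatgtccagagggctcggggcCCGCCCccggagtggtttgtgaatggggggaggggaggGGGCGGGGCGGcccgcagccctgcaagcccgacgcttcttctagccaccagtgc
Ror2 and Fzd7 have GC-rich starts, with 73.2 and 65.2% GC and 4 and 6 GC boxes, and Fzd7 has 2 CCAAT boxes. The Fzd4 and Fzd5 windows, not shown, have 72.8 and 76.4% GC and 7 and 9 GC boxes. The Fzd1 window has 51.2% GC, no GC box and 1 match to TATAAA, which begins 202 bases before the start. For Fzd1 and Fzd7 the RefSeq start used here lies upstream of the GENCODE start. Over 32851 RefSeq promoter windows of this length, 32.7% hold a GC box, 12.4% TATAAA at any position and 33.9% a CCAAT box. The median GC content is 52.4%. Neither TCF/LEF motif, CTTTGAT or, with a changed last base, CTTTGAA, sought on both strands, was in any of the 5 member windows, and 7.48% of all windows hold one. A match in letters is a description and not a site in use.

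**Figure D1:**
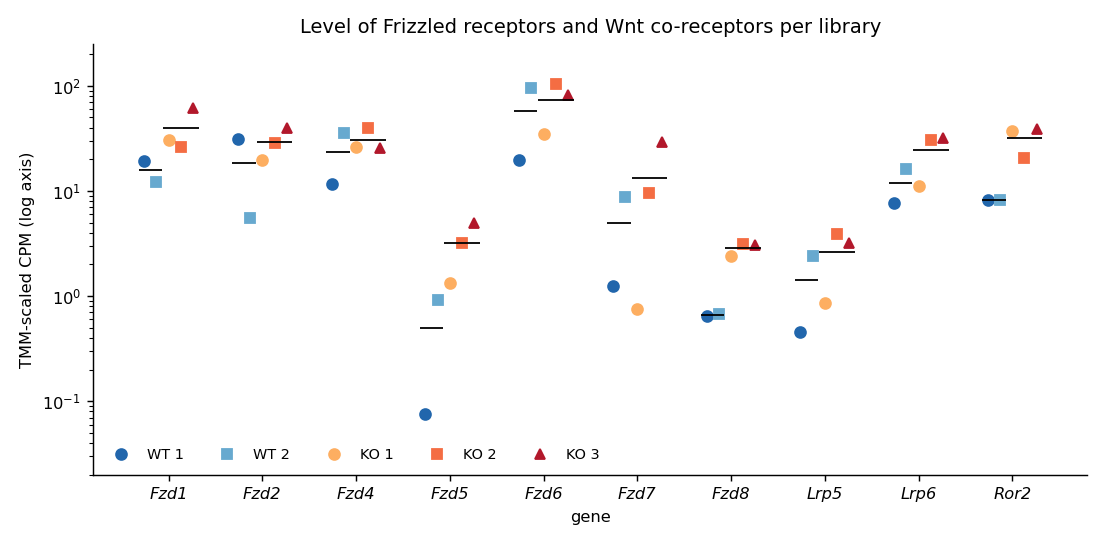
TMM-scaled CPM of the 10 genes in each library, log scale. Each point is a library and each black line the mean of its group, without error bars. Both WT libraries lie below every KO library for Fzd1, Fzd5, Fzd8 and Ror2, and Fzd7 spans from 0.758 to 29.4 within KO.

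Fzd1, a Frizzled that signals through beta-catenin with Lrp6, had 19.4 and 12.2 CPM in WT replicates 1 and 2 and 30.7, 26.4 and 61.0 in KO replicates 1, 2 and 3. The groups did not overlap, and the highest value belonged to KO replicate 3. Its mean was 15.8 ± 5.09 (SD, n = 2) for WT, against 39.4 ± 18.9 (SD, n = 3) for KO. Its log2 fold change of 1.32 (SE 0.57) did not pass (edgeR quasi-likelihood test, adjusted p = 0.81). It was 0.86 without KO replicate 3 and 0.56 in the 3 libraries whose titles share a code (WT replicate 1, KO replicates 1 and 2). Fzd1 is a gene of a single exon on chromosome 5 (4753839 to 4758035, minus strand).

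Fzd8, another single-exon Frizzled and a strong partner of Lrp6 in beta-catenin signalling, was scarce in all libraries. It had 0.647 and 0.676 CPM in WT, and KO libraries had 2.40, 3.13 and 3.07, from 17 to 133 reads a library. Within each group the values were close, and the groups did not overlap. Even so the log2 fold change of 2.11 had a wide error (SE 1.48, 95% interval -1.47 to 5.70) and did not pass (edgeR quasi-likelihood test, adjusted p = 0.876). Leaving out any single library moved it only between 2.04 and 2.19. With the trend of each library with transcript length removed it was 1.41. Fzd8 lies on chromosome 18 (9212163 to 9218136, plus strand).

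Fzd5, best known as a receptor in the eye and gut, had the lowest mean per length (0.304 CPM per kilobase, beside 0.332 for Fzd8). The order was not fixed, since Fzd8 was above Fzd5 in 3 of 5 libraries. WT replicate 1 had 2 reads (0.0761 CPM, Poisson interval 0.00921 to 0.275) and WT replicate 2 had 53 (0.918 CPM). KO replicates 1, 2 and 3 stood at 1.33, 3.23 and 4.95 CPM. The groups did not overlap, but WT replicate 2 and KO replicate 1 were near each other, with Poisson intervals of 0.688 to 1.2 and 0.956 to 1.79 that overlap. Its log2 fold change was 2.65 (SE 1.82, adjusted p = 0.873, edgeR quasi-likelihood test). Leaving out WT replicate 2 gave 5.31 and leaving out WT replicate 1 gave 1.75. GENCODE M21 places the unnamed locus Gm38058 on the opposite strand over 1233 exonic nt of Fzd5, and the library kit does not mark strand, so reads there cannot be assigned to 1 gene. Fzd5 has 2 exons on chromosome 1 (64730558 to 64737751, minus strand).

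Fzd6, which is best known for planar polarity of skin and hair and for damping beta-catenin signalling, was on average the most abundant Frizzled per length. Its level was 19.5 CPM in WT replicate 1 and 94.8 in WT replicate 2, and 35.2, 105 and 81.3 in KO. WT replicate 1 and KO replicate 1 were low and the other 3 libraries high, so the groups overlapped. WT replicate 1 is also the library with the lowest endothelial and interstitial marker sums, and it was lowest for Fzd4, Fzd5, Fzd6, Fzd8, Lrp5 and Lrp6, where the part of these cells was not tested. The log2 fold change of 0.37 (SE 0.77, adjusted p = 0.976, edgeR quasi-likelihood test) turned to -0.40 without WT replicate 1 and to 1.92 without WT replicate 2. Exons of Fzd6 share 152 nt with the antisense transcript Gm26704. Fzd6 has 7 exons on chromosome 15 (39006034 to 39038188, plus strand).

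Fzd4, the receptor of the ligand norrin and a regulator of vessel growth, had 11.8 and 35.6 CPM in WT, and KO libraries had 26.2, 40.1 and 25.5. WT replicate 1 was lowest, and WT replicate 2 lay within the KO range. The log2 fold change was 0.37 (SE 0.60, adjusted p = 0.96, edgeR quasi-likelihood test), with -0.25 and 1.38 without WT replicates 1 and 2 and -0.43 with the length trend removed. Fzd4 has 2 exons on chromosome 7 (89404355 to 89413134, plus strand). Norrin itself (Ndp) was at -0.68 (SE 0.83, adjusted p = 0.936), and at 0.62 without WT replicate 2. Tspan12, the tetraspanin that joins the norrin receptor complex, had 145 and 131 CPM in the WT libraries, while KO libraries had 76.4, 84.5 and 113. Every KO library was below both WT libraries for Tspan12, with a log2 fold change of -0.59 (SE 0.33, adjusted p = 0.831).

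Fzd7, a single-exon Frizzled widespread in stem and mesenchymal cells, varied most of the members within KO. It had 1.26 and 8.73 CPM in WT, and KO libraries had 0.758, 9.62 and 29.4. The lowest and the highest value of the 5 libraries both belonged to KO. Within KO the highest library was 38.8 times the lowest, against 2.08 for a typical tested gene and at most 4.53 for any other member. The log2 fold change of 1.41 (SE 1.54, adjusted p = 0.929, edgeR quasi-likelihood test) was 0.06 without KO replicate 3, and 0.56 without WT replicate 1, against 3.40 without WT replicate 2. With limma-voom it was 0.22. Fzd7 lies on chromosome 1 (59482424 to 59486955, plus strand).

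Fzd2, a single-exon Frizzled that binds Wnt5a and Wnt3a, had its lowest value in WT replicate 2, as Fzd1 did, with 31.1 CPM in WT replicate 1 and 5.54 in WT replicate 2. KO replicates 1, 2 and 3 had 19.6, 28.8 and 40.1. Only WT replicate 2 was low, and WT replicate 1 was second highest of the 5. WT replicate 2 is also the library nearly without cardiomyocyte markers, and the part of these cells in the Fzd2 level was not tested. The log2 fold change was 0.69 (SE 0.80, adjusted p = 0.934, edgeR quasi-likelihood test), -0.08 without WT replicate 2, against 2.38 without WT replicate 1. Fzd2 lies on chromosome 11 (102604396 to 102608058, plus strand).

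**Figure D2:**
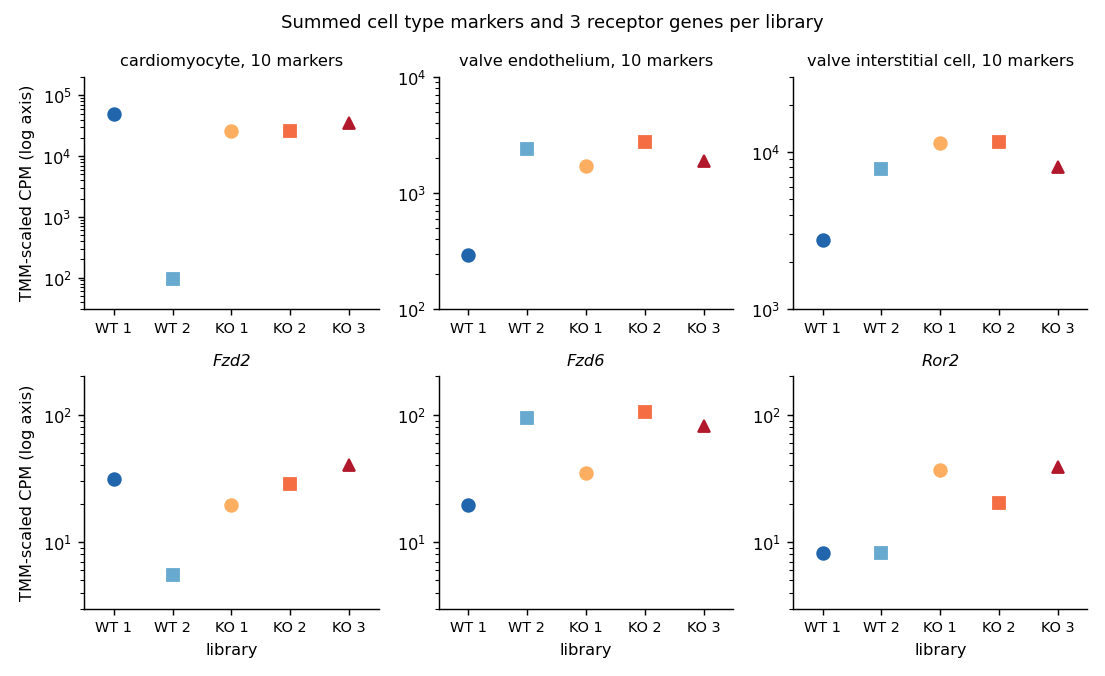
Summed TMM-scaled CPM of 10 cardiomyocyte, 10 valve endothelial and 10 interstitial cell markers (upper row) and TMM-scaled CPM of Fzd2, Fzd6 and Ror2 (lower row), each point 1 library on a log axis. WT replicate 2 is lowest for cardiomyocyte markers (93.5) and Fzd2 (5.54), WT replicate 1 is lowest for endothelial markers (297) and Fzd6 (19.5), and both are equally low for Ror2.

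The co-receptor genes had the same order of libraries at their lower end. Lrp6, the main Wnt co-receptor of most tissues, had 7.72 and 16.2 CPM in WT, and KO libraries had 11.1, 30.3 and 32.1. WT replicate 1 was lowest, KO replicate 1 next, and KO replicates 2 and 3 were highest. Its log2 fold change was 1.03 (SE 0.69, adjusted p = 0.866, edgeR quasi-likelihood test), 0.56 without WT replicate 1, against 1.66 without WT replicate 2. At 9368 nt Lrp6 has the longest transcript of the 10, and with the length trend removed the value was -0.09. It has 23 exons on chromosome 6 (134446476 to 134566965, minus strand).

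Lrp5, the co-receptor known for bone mass and eye vessels, had 12 reads in WT replicate 1 (0.457 CPM) and 138 in WT replicate 2 (2.39 CPM). KO replicates 1, 2 and 3 had 0.853, 3.87 and 3.19 CPM. WT replicate 1 and KO replicate 1 were low and the groups overlapped. The log2 fold change of 0.88 (SE 1.58, adjusted p = 0.963, edgeR quasi-likelihood test) was 0.10 without WT replicate 1, against 2.52 without WT replicate 2. Per kilobase of transcript, Lrp6 exceeded Lrp5 in 5 of 5 libraries, by 3.73 to 9.32 times, with overlap between WT (9.32 and 3.73) and KO (7.18, 4.32 and 5.54). Lrp5 also has 23 exons and lies on chromosome 19 (3584828 to 3686564, minus strand).

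**Figure D3:**
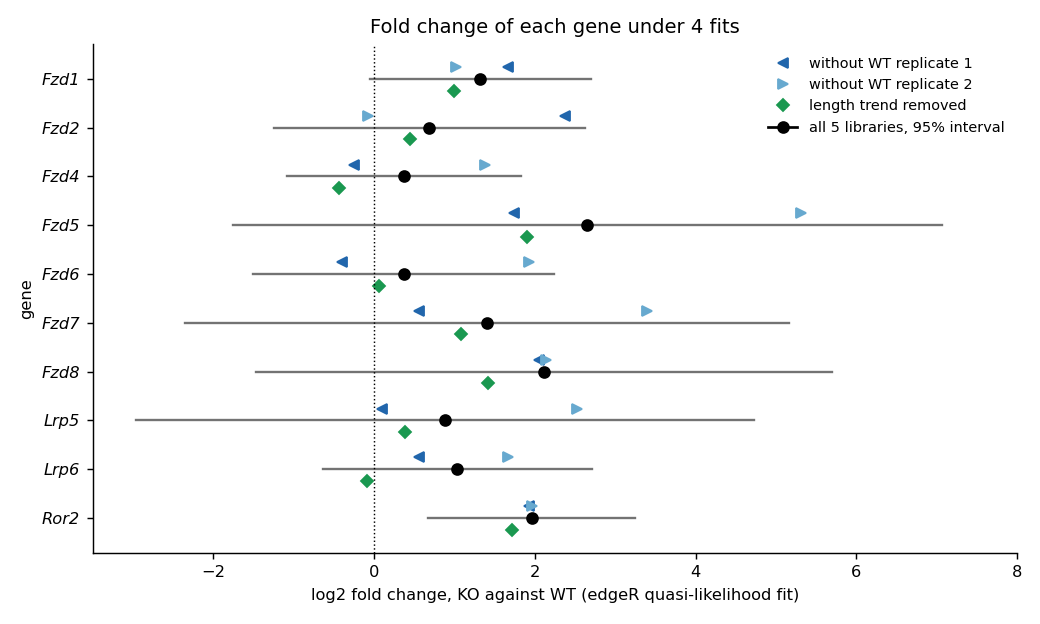
Log2 fold change of each gene, KO against WT, on a linear axis. Black points and lines are the fit to all 5 libraries with its 95% interval, triangles are fits without 1 WT library, and diamonds have the length trend removed. Ror2 alone has an interval above 0 (0.67 to 3.25), before adjustment over all genes, and the 2 triangles lie far apart for Fzd2, Fzd5, Fzd6, Fzd7 and Lrp5.

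The WT libraries differed 12.1-fold for Fzd5, 6.96-fold for Fzd7, 5.24-fold for Lrp5, 4.86-fold for Fzd6, 3.03-fold for Fzd4 and 2.10-fold for Lrp6, each time with WT replicate 2 higher. For Fzd2 and Fzd1 WT replicate 2 was lower, at 0.178 and 0.628 of WT replicate 1. WT replicate 1 was the lowest of the 5 libraries for 6 of the 10 genes, beside 30.7% of all tested genes, and WT replicate 2 for 3, beside 24.4%. The highest library was KO replicate 3 for 6 genes and KO replicate 2 for 4, beside 18.1 and 20.3% of all tested genes. Without WT replicate 2, 8 members had every KO library above the remaining WT library, beside 32.6% of all tested genes, and without WT replicate 1 there were 5, beside 30.1%. The count was 7 without KO replicate 1, beside 20.5%, and 4 without KO replicate 2 or KO replicate 3, beside 16.7 and 21.4%.

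Levels were compared between members per kilobase of the longest coding transcript. Fzd6 led with a mean of 15.5 CPM per kilobase over the 5 libraries, and ranged from 4.51 to 24.3. Fzd1 (7.13), Fzd2 (6.83), Ror2 (5.66) and Fzd4 (4.14) followed, then Fzd7 (2.20) and Lrp6 (2.08), and last Lrp5 (0.417), Fzd8 (0.332) and Fzd5 (0.304). Among neighbours in this order, only the difference between Lrp6 and Lrp5 (mean 1.66, SD 0.923 over 5 libraries) exceeded its own SD and had 1 direction in every library. Fzd6 was above Fzd1 in 4 of 5 libraries, with a mean difference of 8.40 and an SD of 9.38.

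The summed level of the 7 Frizzleds was 19.8 and 33.8 CPM per kilobase in WT replicates 1 and 2, and 25.5, 47.5 and 55.8 in KO, so that the groups overlapped. Fzd6 made up 64.8% of this sum in WT replicate 2 and 22.8% in WT replicate 1, where Fzd2 led with 42.98%. In KO replicates 1, 2 and 3 Fzd6 led with 31.95, 51.1 and 33.7%, and Fzd2 held 20.997, 16.6 and 19.6%. The mean share of Fzd6 was 43.8% in WT and 38.9% in KO (exact permutation test, two-sided, p = 0.8), and that of Fzd2 23.7 and 19.1% (p = 0.8, exact). Fzd5 and Fzd8, the scarcest Frizzleds on average, had their larger shares in KO. Mean shares in WT and KO were 0.224 and 1.01% for Fzd5, and 0.441 and 1.20% for Fzd8. Both had p = 0.2, and 0.7 after adjustment over the 7 shares (exact permutation test). With 2 against 3 libraries 0.2 is the smallest p this test can give, so no share could pass 0.05.

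**Figure D4:**
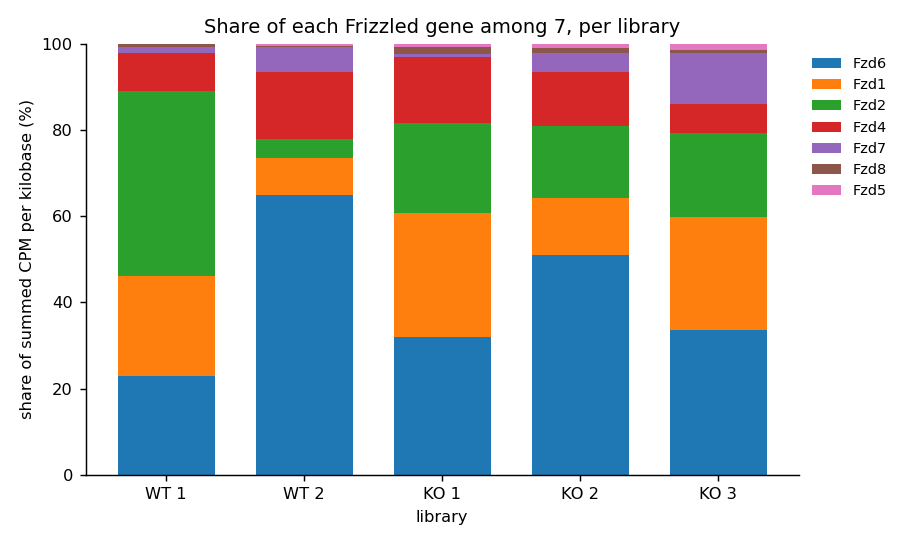
Share of each of 7 Frizzled genes in their summed CPM per kilobase, 1 stacked bar per library, from 0 to 100%. Fzd6 takes 64.8% in WT replicate 2 and 22.8% in WT replicate 1, and the KO libraries lie between with 31.95 to 51.1%.

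The other Frizzleds did not pass either. Fzd10 had 0.723 and 12.1 CPM in WT, and KO libraries had 2.75, 11.7 and 25.4, low in WT replicate 1 and KO replicate 1 as Fzd7 was. Its log2 fold change of 1.04 (SE 1.39) was 0.09 without WT replicate 1, against 4.19 without WT replicate 2. Fzd3 had 23.7 and 19.0 CPM in WT, and KO libraries had 41.5, 13.4 and 28.7, a log2 fold change of 0.38 (SE 0.59) that was -0.98 with the length trend removed. Fzd9 had between 1.65 and 7.73 CPM (0.05, SE 1.23, with -0.03 by DESeq2 size factors, and 1.32 and -0.63 without WT replicates 1 and 2). Among the 11 tested genes of these and other Wnt receptors, 9 were positive (49.4% of all tested genes), with a median log2 fold change of 0.38. Of these genes 0 passed the edgeR quasi-likelihood test and 1 had an unadjusted p under 0.05 (5.84% of all tested genes). The median was 0.13 with 6 of 11 positive when the length trend was removed, and 0.20 and 0.67 without KO replicates 3 and 1. The gene of smallest p, Gpr124, encodes a receptor that works with Reck to sense Wnt7 in vessels, and had 2.93 and 7.03 CPM in the WT libraries, while KO libraries had 25.1, 51.1 and 13.3 (log2 fold change 2.58, SE 0.82, adjusted p = 0.81).

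Of 21 genes for Wnt ligands and their secretion 11 could be tested, 6 positive and 5 negative, with a median of 0.19. The edgeR quasi-likelihood test called 0, and 0 had an unadjusted p under 0.05 (5.84% of all tested genes). The filter kept other sets when a WT library was left out. Without WT replicate 1 the median was -0.26 over 14 genes, and without WT replicate 2 it was 1.42 over 13. Wnt5a, the ligand of Ror2, had 6.58 and 11.7 CPM in WT, and KO libraries had 10.6, 10.3 and 10.4. Its log2 fold change was 0.19 (SE 0.65, 95% interval -1.38 to 1.77, adjusted p = 0.984), with -0.64 after the length trend was removed and -0.19 without WT replicate 1. The Wnt5a values in KO lay between those of WT, whereas those of Ror2 did not overlap. Wls, the carrier that brings Wnts to the cell surface, ranged from 259 to 441 CPM (0.28, SE 0.35, and -0.04 without WT replicate 1), and Wnt9a had no read in WT replicate 1 (log2 fold change 1.10, SE 2.03, and 0.07 without that library).

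Of 16 symbols for R-spondin receptors and receptor turnover, 10 could be tested. Of these 9 were positive (49.4% of all tested genes), with a median of 0.99. The edgeR quasi-likelihood test called 0, and 0 had an unadjusted p under 0.05 (5.84% of all tested genes). Without WT replicate 1 the filter kept 13 genes of this list, a different set, and their median was 2.97. Shisa2, which holds Frizzleds back in the endoplasmic reticulum, had a log2 fold change of 1.84 (SE 0.93, adjusted p = 0.812) and Usp8, a deubiquitinase that returns Frizzleds to the surface, 0.69 (SE 0.46, with 0.25 and 1.27 without WT replicates 1 and 2). Znrf3, a ubiquitin ligase that removes Frizzleds, was scarce at 0.277 to 5.12 CPM (1.53, SE 1.70, with 3.25 and 0.76 without WT replicates 1 and 2 and 0.64 without KO replicate 1). Lgr5, a receptor of R-spondins, had at most 0.519 CPM and was not tested.

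Secreted inhibitors had a median of 1.89 (1.22 without KO replicate 3) over 10 tested genes, 6 positive and 4 negative. The edgeR quasi-likelihood test called 0. An unadjusted p under 0.05 was found for 2, both positive, beside 4.57% of all tested genes in that direction. Sfrp2, a decoy with a Frizzled-like domain, had 43.4 and 35.7 CPM in WT, and KO libraries had 75.1, 128 and 346 (log2 fold change 2.21, SE 0.72, adjusted p = 0.81, edgeR quasi-likelihood test). Dkk3, a Dickkopf relative, had 83.2 and 178 CPM in WT, and KO libraries had 223, 347 and 930 (1.94, SE 0.74, adjusted p = 0.81). For both, KO replicate 3 was highest by far, and without it the values were 1.36 and 1.13.

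Inside the cell, 18 of 24 genes of the beta-catenin branch were positive (49.4% of all tested genes), with a median of 0.44. Every KO library was above both WT libraries for 9 of them (13.5% of all tested genes). The quasi-likelihood test called 0 and 3 had an unadjusted p under 0.05 (5.84% of all tested genes). The median was 0.21 with 15 of 24 positive when the length trend was removed, and 0.67 without WT replicate 2. Apc, the scaffold of the destruction complex, had 3.61 and 7.66 CPM in WT, and KO libraries had 45.0, 54.3 and 28.9 (log2 fold change 2.92, SE 0.60, adjusted p = 0.81, edgeR quasi-likelihood test). DESeq2 gave Apc an adjusted p of 0.0015 and the likelihood-ratio test 0.0323, and with the length trend removed the value was 1.42. Gsk3b, the kinase of that complex, had a log2 fold change of 1.56 (SE 0.46, adjusted p = 0.81), and 0.46 with the length trend removed.

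Of 14 beta-catenin target genes 12 were positive with a median of 0.26, and without WT replicate 1 the median was -0.45, and 1.49 when WT replicate 2 was left out. The quasi-likelihood test called 0 and 1 had an unadjusted p under 0.05 (5.84% of all tested genes). Axin2, the most direct readout of the branch, had 0.304 and 0.641 CPM in WT, and KO libraries had 1.105, 3.42 and 0.818. All KO values lay above WT, as for 13.5% of all tested genes, at 8 to 145 reads a library. WT replicate 2 (37 reads) and KO replicate 3 (20 reads) were near each other in CPM. The log2 fold change was 1.90 (SE 1.79, adjusted p = 0.914, edgeR quasi-likelihood test). It was 1.02 without KO replicate 2. Apcdd1, a membrane inhibitor of Wnt receptors, had 1.67 (SE 0.58, adjusted p = 0.81), and 0.37 with the length trend removed. Ccnd1, which encodes cyclin D1, had 1.13 (SE 0.47, adjusted p = 0.81), and 0.77 without WT replicate 2.

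Of 20 genes of planar polarity and the Ror2 branch, 14 were positive (49.4% of all tested genes). Their median of 0.75 was 0.09 with the length trend removed and 0.39 without KO replicate 2. The quasi-likelihood test called 0, and 5 had an unadjusted p under 0.05 (5.84% of all tested genes). Dchs1, an atypical cadherin, had 2.40 (SE 0.64, adjusted p = 0.81, edgeR quasi-likelihood test), with an adjusted p of 0.0369 in DESeq2 and a value of 1.14 with the length trend removed. Daam1, a formin that links Dishevelled to the cytoskeleton, had 24.5 and 21.3 CPM in WT, and KO libraries had 46.7, 84.9 and 64.5 (1.52, SE 0.43, adjusted p = 0.81), and 0.80 with the length trend removed. Vangl2, a core polarity protein that can be modified through Ror2, had 12.3 and 13.8 CPM in WT, and KO libraries had 6.76, 14.6 and 18.0. Its log2 fold change of 0.01 (SE 0.65, 95% interval -1.56 to 1.58) was -0.06 with DESeq2 size factors and -0.78 with the length trend removed.

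Smarcc2, Kdm5b, Filip1l, Rfx7 and Cpe had the library pattern most like the median pattern of the 10 genes. Likeness was the root mean square difference of log2 CPM, centred over the 5 libraries, and lay between 0.0844 for Smarcc2 and 0.1297 for Cpe, with a median of 1.07 over 13697 candidate genes. Smarcc2, a subunit of the BAF chromatin remodelling complex, had 17.2 and 36.0 CPM in WT, and KO libraries had 42.3, 71.1 and 69.6. Of the members themselves Lrp6 was nearest to that median pattern (0.252) and Fzd7 farthest (1.47). These genes were picked for likeness over only 5 libraries that differ in depth and makeup, and the names are a description with no test.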

How the data were processed

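Per the labels' protocols, total RNA of mitral leaflets was extracted with an RNeasy kit, DNase treated and made into SMART-Seq v4 libraries, a kit that does not mark strand. The authors deposited raw counts per gene, whole numbers per library. The submitters' processing notes list mm10 and GRCm38 as builds and DESeq2, HTSeq, cutadapt 1.11 and FastQC 0.11.5 as tools. Which aligner and annotation served was not given in the sources used here. Statistics columns of the authors were not used. Counts were compared in edgeR 4.0.16 (R 4.3.3): filterByExpr, TMM scaling (factors 0.837 to 1.07), robust two-sided quasi-likelihood F test, Benjamini-Hochberg adjustment over 14244 genes, threshold 0.05. On simulated data this procedure missed most genes changed 4-fold, so a gene that is not called may still differ. SE is the log2 fold change divided by the root of F, and intervals use the fit's degrees of freedom. Replicate numbers follow deposition order only, so none pair. Lengths and coordinates are from GENCODE M21 (GRCm38), where 22750 of 24062 symbols matched directly, 935 matched through a synonym and 377 did not. The length trend was removed per library with a lowess curve as an offset. Named beside the 10 members were the 2 genes of smallest p in each list (none held a call by the quasi-likelihood test), genes acting directly on a member, the other Frizzleds, and the 5 genes of nearest pattern with at least 20 reads on average. Members and lists were chosen with earlier results of these data known. Alternatives included DESeq2 1.42.0 and limma 3.58.1. The low-count filter was rerun when libraries were left out, so the genes behind a list median could change. Where a fit kept a single WT library (1 left out, or titles of code IR28N only), that library is assumed to vary like KO.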

Additional observations from a re-analysis of the deposited data

How the results depend on the processing

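No member was called in any of the 15 other fits. Genes called in the whole table numbered 0 in the fit to all libraries, 218 with DESeq2, 50 with the likelihood-ratio test and between 0 and 245 without 1 library (245 without WT replicate 1). The median log2 fold change of the 10 members, 1.18, was 1.82 when only titles of code IR28N were kept, 0.72 with the length trend removed, and between 0.76 and 1.94 without 1 library. The sign turned for Fzd4 (-0.43) and Lrp6 (-0.092) with the length trend removed, for Fzd4 (-0.25) and Fzd6 (-0.40) without WT replicate 1, and for Fzd2 without WT replicate 2 (-0.077) and with the shared title code (-0.36). Left-out libraries put Fzd2 between -0.077 and 2.38, Fzd4 between -0.25 and 1.38 and Fzd6 between -0.40 and 1.92. The cause was not tested. Fzd1, Fzd5, Fzd7, Fzd8, Lrp5 and Ror2 were positive in all 15. Members with every KO library above every WT library, a count examined after seeing the data, numbered 4 with either other scaling (12.5 and 15.4% of all tested genes), between 4 and 8 without 1 library (16.7 to 32.6%), and 8 with the shared title code (42.5% of all tested genes). The median of all tested genes moved from -0.01 to 0.10 with total counts, -0.11 with the length trend removed, 0.15 and 0.25 without WT replicates 1 and 2, and 0.23 with the shared title code. No paired analysis was possible because the labels give the groups no shared set of replicate numbers. With the title code as a block, added after seeing the data, 1 residual degree of freedom remains and IR28N alone stands in both groups. That fit called 0 genes and gave a members' median of 1.82, Fzd2 -0.36 and Ror2 1.80 (adjusted p = 0.254, edgeR quasi-likelihood test). Depth limits Fzd5, Fzd8 and Lrp5, with 2 to 164 reads a library.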
